A study of Mus musculus with 11 samples.

Results

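The 4 blocks of unusually strong MeDIP-seq signal described here in the suprachiasmatic nucleus (SCN) of the mouse, the main circadian clock of the brain, are each made of 500-bp windows that the authors named after the nearest gene: B020014A21Rik, Lrrc4c, Tmem125 and 4933422A05Rik. The members were all rows of the 4 deposited lists that carry one of these gene names, 23 of 1239 listed windows. The list of the ventral SCN at 24 h against 26 h gave 22 of its 217 windows these names, and they make up the blocks. The list of the ventral SCN at 24 h against 22 h gave 1 of 812, which lies apart. The dorsal lists, with 131 windows for 24 h against 22 h and 79 for 24 h against 26 h, held none. Windows that the authors did not list could not be followed, so the level of these blocks in the dorsal SCN, or at 22 h for the 22 windows, is not known from these data. The genes were chosen for high ventral signal that was higher at 24 h, and the ventral values below therefore describe the members and carry no test.

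The mice were wild-type C57BL/6Cr1 animals, entrained for 6 weeks to a cycle of light and dark lasting 22, 24 or 26 h, followed by 3 days of darkness. Brains were taken at postnatal day 90 and circadian time 4, and 1 coronal slice of about 250 µm was parted into ventral and dorsal SCN. There were 11 samples in 6 groups, with 2 samples per group except dorsal 24 h with 1. The lists show 1 column of values per group, so the spread between animals cannot be seen and intervals cover counting error only.

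MeDIP-seq captures sonicated DNA with an antibody to methylated cytosine and sequences what was captured. Signal in a window therefore depends on methylation, on the number of CpG dinucleotides that can carry it, and on how many copies of the sequence feed reads into that window. Tandem repeats are stretches in which a unit follows itself many times, and in mouse the best known are the satellites at and beside the centromeres, which are heavily methylated in most somatic tissues. Satellite-like pieces also occur far from centromeres, and a genome assembly usually holds fewer copies of such repeats than the chromosomes do. Lrrc4c encodes netrin-G ligand 1, a postsynaptic adhesion protein, and Tmem125 encodes a transmembrane protein. B020014A21Rik and 4933422A05Rik are named for non-coding transcripts.

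The sequences below show what the blocks hold, since 2 of them hold simple tandem arrays and the other 2 hold pieces of satellite type. All are from mm9, the build of the lists, and run 5′ to 3′. The first pair shows the arrays, with exact copies of the most frequent unit in capitals.

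B020014A21Rik, chr10:7232514-7232703, plus strand: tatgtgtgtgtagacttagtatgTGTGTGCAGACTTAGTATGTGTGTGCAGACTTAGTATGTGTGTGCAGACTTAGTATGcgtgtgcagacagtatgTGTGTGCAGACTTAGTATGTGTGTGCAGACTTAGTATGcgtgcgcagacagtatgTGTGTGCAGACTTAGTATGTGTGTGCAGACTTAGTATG
Tmem125, chr4:118220193-118220412, plus strand: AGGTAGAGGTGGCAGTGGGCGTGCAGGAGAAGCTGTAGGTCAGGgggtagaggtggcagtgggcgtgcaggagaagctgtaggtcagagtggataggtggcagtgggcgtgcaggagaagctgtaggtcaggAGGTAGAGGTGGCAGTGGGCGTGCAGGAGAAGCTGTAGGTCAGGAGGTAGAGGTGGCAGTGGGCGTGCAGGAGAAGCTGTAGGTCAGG

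The second set shows the relation of Lrrc4c and 4933422A05Rik to the strongest other block of the list, named after Mir101c near the start of chromosome 9. Capitals mark words of 12 bases or more that are shared with the window named after Mir101c. They cover 72.4% of the Lrrc4c piece and 84.5% of the 4933422A05Rik piece.

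Lrrc4c, chr2:98504001-98504246, plus strand: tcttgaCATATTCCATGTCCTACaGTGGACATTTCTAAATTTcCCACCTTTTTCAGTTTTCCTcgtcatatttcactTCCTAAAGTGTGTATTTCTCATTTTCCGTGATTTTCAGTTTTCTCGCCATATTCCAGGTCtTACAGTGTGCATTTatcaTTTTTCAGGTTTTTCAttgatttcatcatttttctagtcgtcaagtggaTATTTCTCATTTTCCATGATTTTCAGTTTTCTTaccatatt
4933422A05Rik, chr9:35112801-35113000, minus strand: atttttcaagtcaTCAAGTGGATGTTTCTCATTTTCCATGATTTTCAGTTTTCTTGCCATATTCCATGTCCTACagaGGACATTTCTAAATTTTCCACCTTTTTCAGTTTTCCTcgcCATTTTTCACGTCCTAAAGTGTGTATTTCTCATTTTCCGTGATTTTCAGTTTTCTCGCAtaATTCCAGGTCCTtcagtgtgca
Mir101c, chr9:3008643-3008889, plus strand: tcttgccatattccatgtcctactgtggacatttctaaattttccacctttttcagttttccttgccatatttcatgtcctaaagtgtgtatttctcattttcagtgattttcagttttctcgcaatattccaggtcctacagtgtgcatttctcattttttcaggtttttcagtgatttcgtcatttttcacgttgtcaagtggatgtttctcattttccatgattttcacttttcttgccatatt

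A further Lrrc4c piece is of a different repeat. Capitals mark words of 12 bases or more shared with the high-signal window named after Chl1, and cover 85.7% of it.

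Lrrc4c, second piece, chr2:98505105-98505348, minus strand: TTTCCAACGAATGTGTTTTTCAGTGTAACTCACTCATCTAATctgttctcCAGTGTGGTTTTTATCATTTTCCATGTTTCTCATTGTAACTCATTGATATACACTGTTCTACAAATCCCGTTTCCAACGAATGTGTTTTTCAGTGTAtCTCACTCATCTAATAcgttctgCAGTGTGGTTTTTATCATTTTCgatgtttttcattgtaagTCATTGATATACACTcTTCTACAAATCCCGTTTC

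None of the 22 windows overlapped an annotated UTR, and most lay between genes in GENCODE M1. The 9 B020014A21Rik windows fell within chr10:7229501-7237000, 16.4 to 23.4 kb from the authors' start site of that gene and 2.8 to 9.8 kb from 9230019H11Rik. The 7 Lrrc4c windows, within chr2:98502001-98508000, were 1.19 to 1.2 Mb from the Lrrc4c start site, so the gene name marks only the nearest start in the authors' annotation. Of these 7 windows, 3 overlapped coding exons and 1 an intron of Gm10801, a predicted gene, and 3 lay between genes beside Gm10801 or Gm10800. The 4 Tmem125 windows were contiguous over chr4:118219501-118221500, upstream of the gene and at distances of -3.4 to -4.9 kb from its start site. Both 4933422A05Rik windows, over chr9:35112501-35113500, were 24.1 and 24.6 kb from the authors' start site, and the nearest gene in GENCODE M1, Gm5614, was 23.1 kb away.

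In the ventral SCN, all 22 windows of the 24 h against 26 h list were higher at 24 h, beside 26.7% of all windows in that list (58 of 217). Since high signal at 24 h chose the genes, nothing is read from that difference. The members made up 37.9% of the windows higher at 24 h. Their signal at 24 h ran from 101.71 to 325.38 RPKM, with a median of 153. RPKM divides the reads of a window by its size and by the depth of its column. At 26 h it ran from 56.39 to 180.41 RPKM, with a median of 95.7. The ratio of RPKM at 24 h to RPKM at 26 h lay between 1.43 and 1.89 with a median of 1.69. The exact 95% interval (Clopper-Pearson, on recovered reads) was above 1 in 22 of 22 windows. It was also above 1 in 15 of 15 other windows higher at 24 h with at least 50 RPKM there. The list holds windows selected on this same contrast, so nothing is read from these counts. In the authors' deposited table the log2 fold change of these windows was 0.46 to 1.01, with a median of 0.73.

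Tmem125 held the strongest signal. From the window nearest the gene outward, the 4 windows had 213.35, 325.38, 307.8 and 145.68 RPKM at 24 h. The same windows had 113.0, 177.02, 180.41 and 87.77 RPKM at 26 h. The middle pair was the peak at both cycle lengths, and every window was higher at 24 h. The ratio was 1.89 (95% interval 1.67 to 2.13) in the first window and 1.66 (1.44 to 1.91) in the last, and these intervals overlap.

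The 2 adjoining 4933422A05Rik windows were nearly alike. They had 214.88 and 207.24 RPKM at 24 h and 119.78 and 115.33 RPKM at 26 h. The ratio was 1.79 (1.59 to 2.02) in the first and 1.8 (1.59 to 2.03) in the second.

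The Lrrc4c windows formed a plateau followed by lower values at the far end. The window that starts 1 kb into the block, at position 98503001, had 202.27 RPKM at 24 h and 111.51 at 26 h. The last window, at 98507501, had 101.71 RPKM at 24 h and 56.39 at 26 h. Although the level at 24 h differed almost 2-fold between these windows, their ratios were 1.81 (1.6 to 2.05) and 1.8 (1.52 to 2.15). The smallest p of the members in the authors' deposited table, 9.96e-27, was at 98503501, with 173.59 against 94.77 RPKM, and it ranked 6 in the list. Only 7 of the 12 grid windows across this block were listed.

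Of the blocks, B020014A21Rik had the lowest ratios, while high-signal windows of other genes that were higher at 24 h reached down to 1.35. Its 9 windows, of 15 grid positions across 7.5 kb, had 102.47 to 155.62 RPKM at 24 h and 68.9 to 102.19 at 26 h. The first window, at 7229501, had 155.62 against 102.19 RPKM, a ratio of 1.52 (1.33 to 1.74). The last, at 7236501, had 102.47 against 71.44 RPKM, a ratio of 1.43 (1.22 to 1.69), and its p of 7.94e-05 in the authors' deposited table ranked 213 in the list. Over this block the ratio had a range of 1.43 to 1.59, which did not overlap the range of 1.66 to 1.89 over the 13 windows of the other 3 genes. Intervals of single windows did overlap between the blocks, and the windows of a block share repeat units, so they are not independent points.

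**Figure D1:**
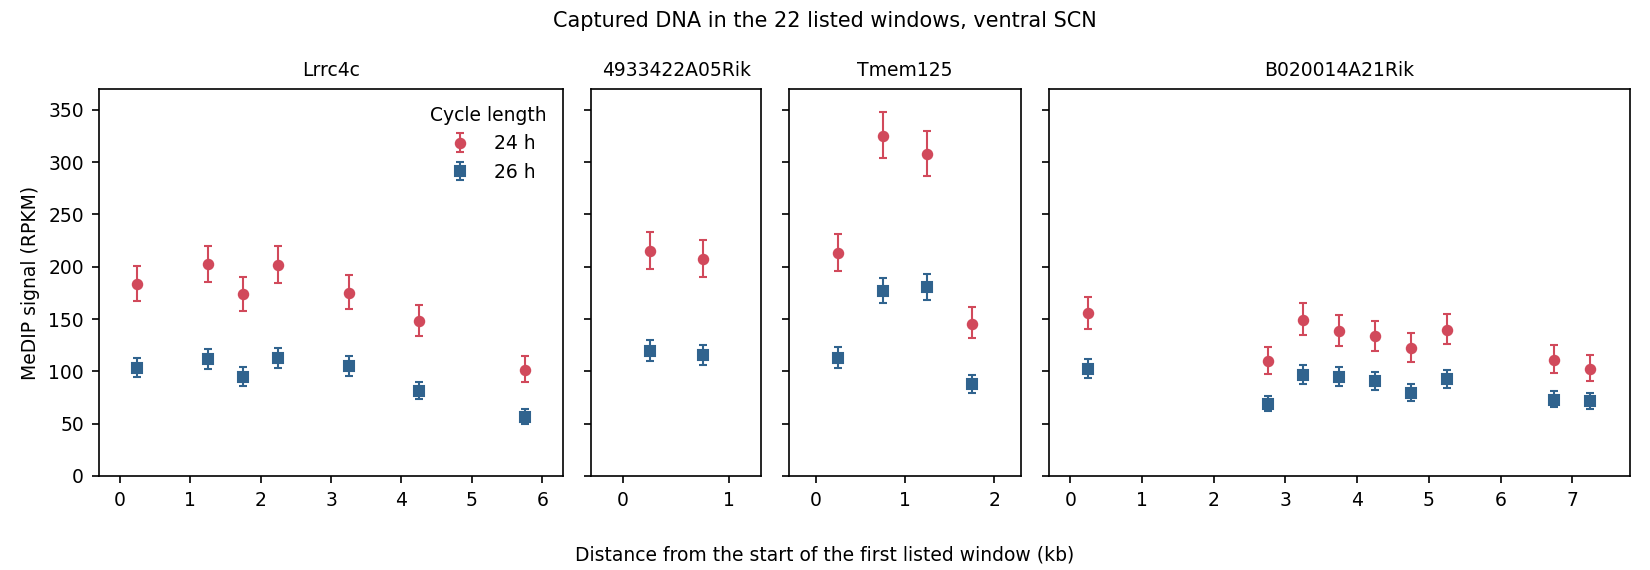
MeDIP signal in RPKM (y axis) of the 22 listed windows, by distance in kb from the start of each block (x axis, window centres). Circles are the ventral 24 h column and squares the ventral 26 h column, with exact 95% Poisson intervals of the recovered reads; in each window the 24 h value lies above the 26 h value, and Tmem125 reaches 325.38 RPKM.

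The ratio and the level were set against each other over all windows and with B020014A21Rik parted from the rest. Over the 22 windows the log2 ratio and the log2 RPKM at 24 h had a Pearson correlation of 0.62 and a Spearman correlation of 0.63. Within the 9 B020014A21Rik windows these were 0.08 and 0.07, and within the 13 windows of the other 3 blocks, pooled, they were 0.11 and 0.24. These correlations are descriptions, since the 24 h value enters both measures and neighbouring windows share sequence.

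Recovered reads put these ratios beside the depth of the columns. Of the ventral columns, that of 26 h held about 9430000 reads, that of 22 h 8170000 and that of 24 h 5230000. The dorsal columns, which list no member, held 4580000 to 5770000. The ventral 26 h column thus had 1.8 times the reads of the 24 h column. Read numbers in 3 of the blocks were nearly equal in both columns. The first 4933422A05Rik window had 562 reads at 24 h and 565 at 26 h, the Lrrc4c window at 98507501 had 266 and 266, and the Tmem125 window at 118220001 had 851 and 835. Median ratios of unscaled reads were 1.0 for Lrrc4c, 0.996 for 4933422A05Rik and 0.983 for Tmem125. For B020014A21Rik the median was 0.844, with 407 reads at 24 h and 482 at 26 h in its first window. The interval of the unscaled read ratio included 1 in 7 of 7 Lrrc4c, 4 of 4 Tmem125, 2 of 2 4933422A05Rik and 1 of 9 B020014A21Rik windows. Near-equal reads were not particular to these blocks. In the 15 other windows higher at 24 h with at least 50 RPKM, the unscaled ratio was 0.75 to 1.09, with a median of 0.98. Their intervals were not counted. The higher RPKM of the member windows at 24 h therefore stands on the scaling to column depth, and the part of depth in the result was not tested.

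**Figure D2:**
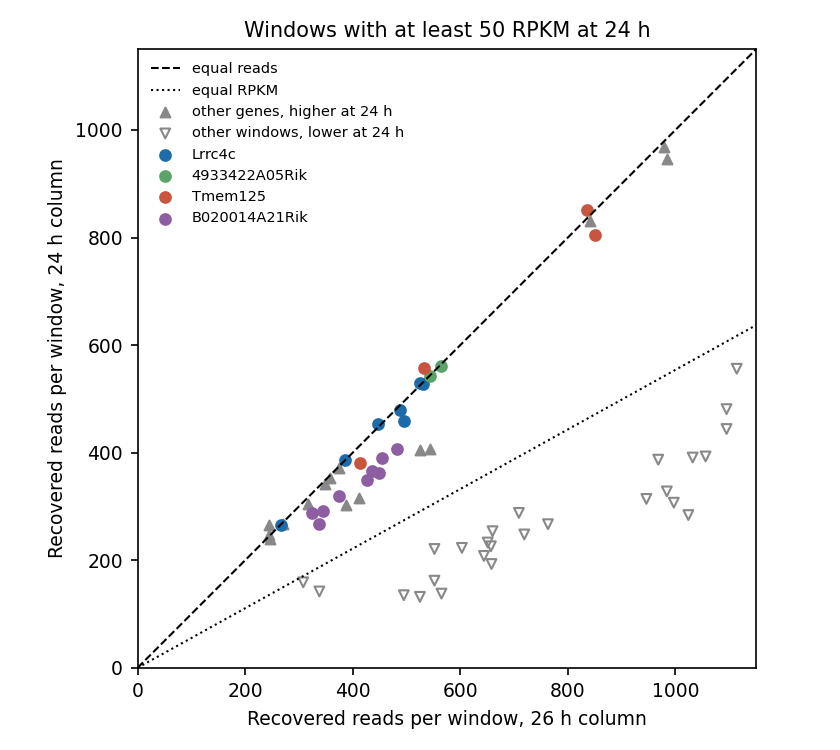
Recovered reads per 500-bp window in the ventral 26 h column (x axis) and 24 h column (y axis), for windows with at least 50 RPKM at 24 h. The dashed line marks equal reads and the dotted line equal RPKM; Lrrc4c, 4933422A05Rik and Tmem125 lie along the dashed line, B020014A21Rik between the lines, and windows lower at 24 h (open triangles) below the dotted line.

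Strong windows did not all share this pattern. The list held 63 windows with at least 50 RPKM at 24 h, of which 22 were members, 15 were others higher at 24 h and 26 were lower at 24 h. The 15 others that were higher had ratios of 1.35 to 1.97, with a median of 1.77, inside or close to the range of the members. The 26 that were lower had ratios of 0.441 to 0.931 and comprised 16 mitochondrial windows, 8 named after Col19a1 and 2 named after Ly6c2. In the 11 Col19a1 windows the signal was 13.76 to 110.12 RPKM at 24 h and 30.53 to 150.31 at 26 h, with a median ratio of 0.529. In the 6 Gad2 windows, named after an enzyme of GABA synthesis, the median ratio was 0.558. Windows of lower signal that were higher at 24 h, 20 with reads in both columns, had a median ratio of 12, far above that of any member. No test was made of these differences, because the lists hold only windows selected on the same contrast.

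The genes most like the members were Kcnh5, Mir101c, Mdga2, Chl1 and Rab10os, by the distance of their median log2 RPKM ratio from the members' median of 0.75 among 10 genes with such windows. The Kcnh5 window had 116.24 RPKM at 24 h and 67.2 at 26 h, a log2 ratio of 0.79. The 4 Mir101c windows, with 91.38 to 370.12 RPKM at 24 h and 52.36 to 208.82 at 26 h, had a median log2 ratio of 0.82. For Mdga2, Chl1 and Rab10os the log2 ratio was 0.83 in each. Likeness was measured between 2 columns only. All B020014A21Rik windows, at log2 ratios of 0.52 to 0.67, lay below the members' median. The windows of the other blocks had 0.73 to 0.92, so the genes named above lie in the range of those blocks. Genes with lower ratios than B020014A21Rik were 2700054A10Rik and Gm14496, at a median of 0.48 each, and Tmx3, at 0.43.

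**Figure D3:**
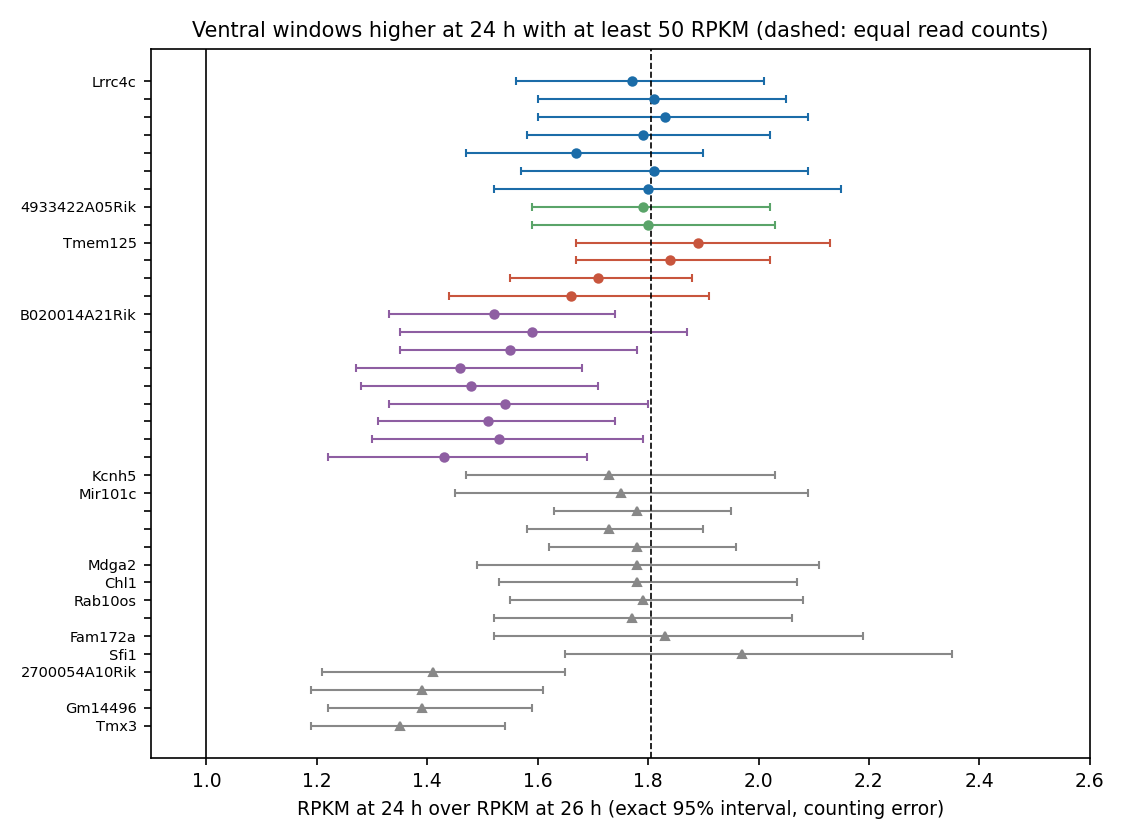
Ratio of RPKM at 24 h to RPKM at 26 h (x axis) in each ventral window higher at 24 h with at least 50 RPKM, with the exact 95% interval of counting error; circles are the 4 blocks, grey triangles other genes. The dashed line at 1.8 is the ratio that equal read counts give; B020014A21Rik points lie at 1.43 to 1.59, left of the other 3 blocks.

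Sequence content was not used to choose the members. The B020014A21Rik block was an array with a period of 19 bases: shifted by 19 bases, 75.6% of its bases matched themselves, against a median of 22.4% over shifts of 5 to 300 bases. The unit TGTGTGCAGACTTAGTATG, capitalised in the sequence above, occurred in 220 exact copies that made up 55.7% of the block. All 242 copies in the genome were on chromosome 10, 229 of them within 10 kb of the block and 13 between 21977844 and 22168254. A self-match of at least 70% at 19 bases was found in 205 of 5116421 grid windows of the genome (0.00401%), 23 of them on chromosome 10. The shift was read from this block, so this count does not cover arrays of other periods. At the best shift of each window, 9 of 9 B020014A21Rik windows reached 70%. So did 5 of 14 other windows higher at 24 h with at least 50 RPKM, and 14 of 194 other windows of the list. The 19-base unit itself holds 0 CpG, and in the stretch printed above the CpGs lie in diverged copies in lower case. Elsewhere in the block their places were not determined. The 9 windows held 5 to 11 CpGs, against a median of 3 over the genome grid, where 33.1% of windows hold at least 5. In other windows with at least 50 RPKM at 24 h the median was 6.5 where higher at 24 h and 8 where lower.

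The Tmem125 block was an array with a period of 44 bases, at which 77.2% of its bases matched. Its most frequent unit, of 44 bases with 1 CpG, occurred 10 times in the block and nowhere else in the genome. Among the windows of the blocks those of Tmem125 were the richest in CpG, with 13 to 16 each, and had a GC content of 59 to 63.4%. The Lrrc4c windows held 1 to 9 CpGs and the 4933422A05Rik windows 7 to 9. In the genome grid 3.33% of windows hold at least 13 CpGs and 0.89% have a GC content of 59% or more. Within this block the window with the most CpGs, 16 at 118220501, was among the 2 strongest, and that with the fewest, 13 at 118219501, was not the weakest.

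**Figure D4:**
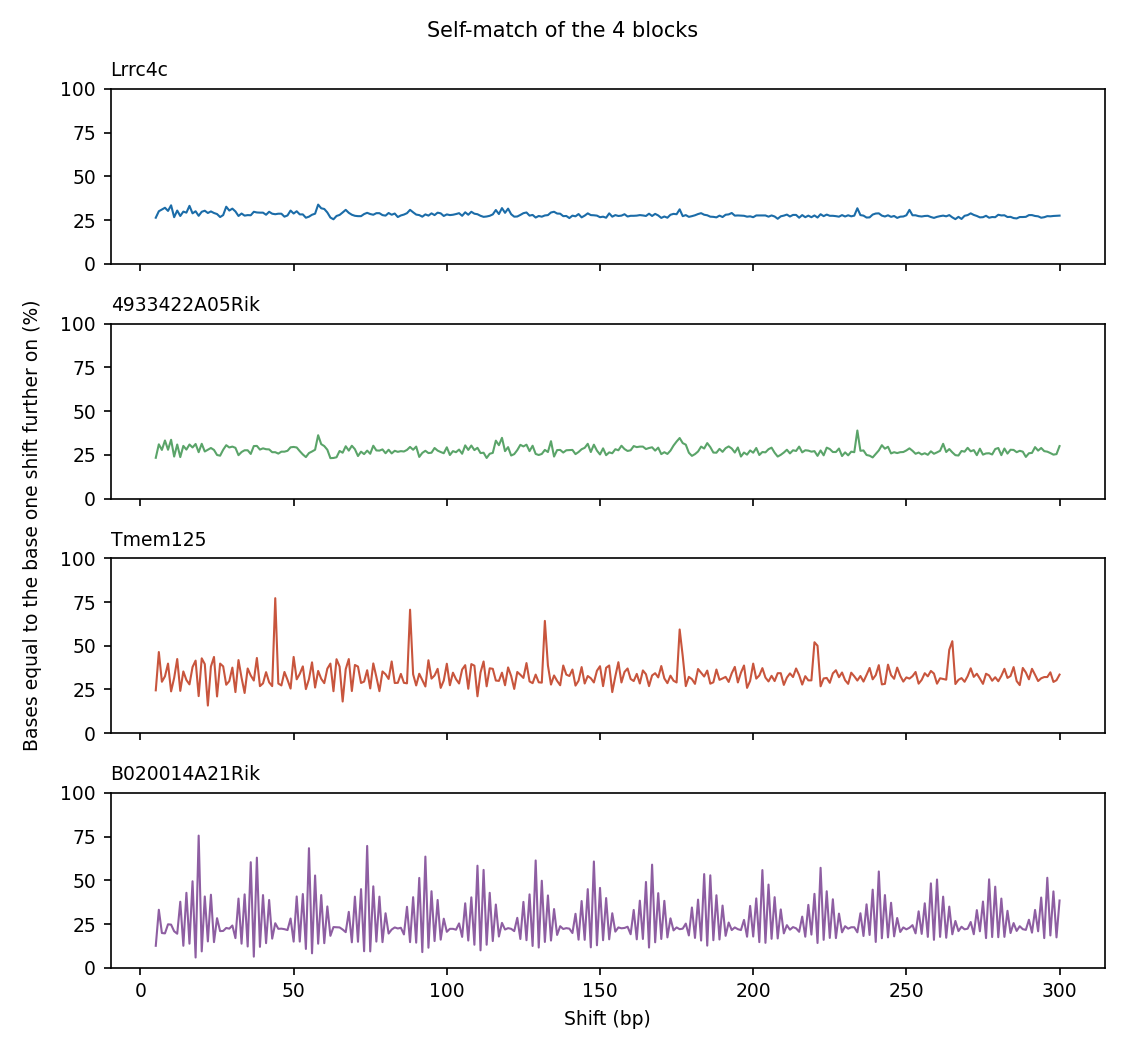
Share of bases equal to the base one shift further on (y axis, %) against the shift in bp (x axis) for the 4 blocks. Tmem125 is highest at 44 bp, with further peaks from 88 to 265 bp, and B020014A21Rik at 19 bp, with further peaks that drift off the multiples of 19, such as those at 222 and 296 bp, while Lrrc4c and 4933422A05Rik show no peak above 40%.

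Lrrc4c and 4933422A05Rik were not simple arrays. Their best self-match over the whole block was 33.9% for Lrrc4c and 38.9% for 4933422A05Rik, the latter at a shift of 234 bases. That spacing is the known unit length of the mouse major satellite, the repeat of pericentromeric heterochromatin, and the 1-kb stretch named after Mir101c had its best shift at 235 bases with 51.1%. Of the 7 Lrrc4c windows, 4 aligned to the Mir101c windows over 22.4 to 49.6% of their length, with best identities of 90.3 to 94.6%. The 2 4933422A05Rik windows aligned over 42.0% and 38.0%, with best identities of 94.0% and 92.5%. The 4933422A05Rik block also matched the Lrrc4c block itself, for example over 377 bases at 95.5% identity and over 235 bases at 97.4%. In Lrrc4c both of these matches lie between listed windows, where the signal is not known. A match of 356 bases at 92.1% lay within listed Lrrc4c windows. No B020014A21Rik or Tmem125 window aligned to the Mir101c or Chl1 windows.

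A different repeat, of the Chl1 type, was found among the 4 blocks in Lrrc4c only. The Lrrc4c windows at 98505001 and 98506001 aligned to the Chl1 window over 68.8% and 21.2% of their length, with best identities of 94.7% and 97.2%. The first had its best self-match, 65.5%, at a shift of 120 bases, the unit length known for the mouse minor satellite of the centromere itself. That satellite carries the CENP-B box, the binding motif of a centromere protein. A core of the box, a run of 15 bases with 6 of them free, was searched on both strands. It occurred 6 times in the Lrrc4c block, 3 of them in the window at 98505001, each as TTCGTTGGAAACGGG and 120 bases apart. The other listed windows of the blocks held none, and the member window outside the blocks was not searched. Of the other high-signal windows only that of Chl1 held the motif, 1 time. In the genome grid 552 windows (0.0108%) held at least 1. A match shows only that these letters are present.

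Between the satellite-type pieces, the Lrrc4c block matched separate places on chromosome 19. There, 7 stretches of 251 to 606 bases had 98.5 to 100% identity to 7 loci spread from 12.9 to 59.4 Mb of that chromosome, and together they covered 44.5% of the block. The longest, at chr2:98505785-98506390, matched chr19:29307917-29308522 over 606 bases at 99.8%, between genes. A stretch at chr2:98504585-98505037 matched chr19:39664902-39665354 over 453 bases at 100%, also between genes. Others matched introns of Arhgap19 (321 bases, 100%), Prune2 (334 bases, 99.1%) and Pdzd8 (251 bases, 100%). Pieces aligned to the Mir101c windows covered 28.5% and pieces aligned to the Chl1 window 16.0%. The 3 kinds together covered 88.4% of the 6.0 kb. These shares include the unlisted grid windows of the block, where the signal is not known. The stretch of 453 bases lies mostly, and the Pdzd8 match wholly, in unlisted windows. Listed windows differed in what they held: chromosome 19 matches covered 78.0% of the window at 98506001, 7.4% of that at 98505001 and 0% of that at 98507501. Their ratios were 1.81, 1.67 and 1.8 in the same order. In the other 3 blocks no match to chromosome 19 of at least 150 bases and 98% identity was found.

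**Figure D5:**
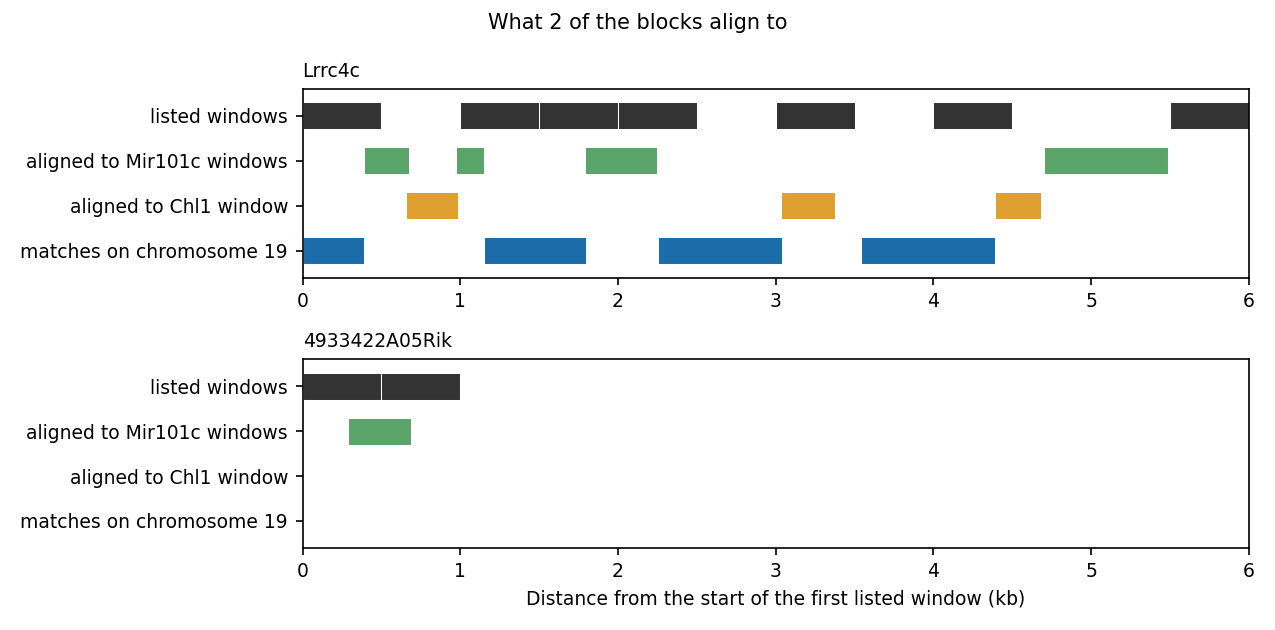
Map of the Lrrc4c and 4933422A05Rik blocks by distance in kb from the start of the first listed window (x axis), with bars for listed windows and for stretches aligned to the Mir101c windows, to the Chl1 window, and to chromosome 19 with at least 98% identity over 150 bases. The Lrrc4c block alternates between the 3 kinds, and the 4933422A05Rik block has 1 stretch of the Mir101c kind.

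The ratios, but not the levels, of windows that aligned to the Mir101c windows lay close together. The 14 such high-signal windows, the Mir101c windows included, comprised 6 members and 8 windows named after Fam172a, Kcnh5, Mdga2, Mir101c and Rab10os. The alignments were of unlike strength. Best identity was only 80.4% for Kcnh5 and 79.2% for Mdga2, and the 2 Rab10os windows aligned over 26.8% and 24.2% of their length. Signal of the 14 windows at 24 h was 94.44 to 370.12 RPKM. Their ratios were 1.73 to 1.83 with a median of 1.79, and their unscaled read ratios 0.959 to 1.02. Windows without this alignment reached such ratios too: Tmem125 had 1.66 to 1.89, and 6 windows of other genes had 1.35 to 1.97. One of the 6, named after Mir101c with a ratio of 1.75, lies where mm9 holds only unread bases and so could not be aligned. The Chl1 window itself had 134.97 RPKM at 24 h and 75.9 at 26 h, a ratio of 1.78. The one Lrrc4c window without either alignment, at 98507501, had a ratio of 1.8. These windows were selected into 1 list by the same contrast, so their likeness is a description.

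Repeat content also bears on where reads can be placed. A window was called mostly unique where at least 50% of its 31-base words occur once in the genome, which held for 3 of 22 member windows (13.6%) and for 63.4% of the other windows of the list. Among other windows with at least 50 RPKM at 24 h it held for 6 of 14 that were higher at 24 h (42.9%) and 12 of 26 that were lower (46.2%). The 3 were both 4933422A05Rik windows, at 85.1% and at the 50% limit itself, and the Lrrc4c window at 98504001, at 51.5%. With 20-base words 1 of 22 was mostly unique, the first 4933422A05Rik window. In B020014A21Rik the median of the windows was 16.2% unique words, and the median number of copies of a word in the genome reached 58 in 1 window. How the authors treated reads that fit several places is not given in the sources used here, and its part in the result was not tested.

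The single member window of the ventral 24 h against 22 h list went the other way. It was named after Lrrc4c and lay at chr2:98472501-98473000, between genes, 29.4 kb from Gm10801 and 1.16 Mb from the Lrrc4c start site. It had 1.91 RPKM at 24 h and 18.11 at 22 h, from 5 and 74 recovered reads, and was thus 9.47-fold lower at 24 h (95% interval 3.88 to 30). The authors' deposited table gave it a log2 fold change of -3.33 and a p of 2.93e-12, rank 24 in the list. In that list 24.3% of windows were higher at 24 h (197 of 812), and 0 of the 1 member window was. Its sequence was unlike the 6-kb block: it held 29 CpGs and 62.2% GC, its 31-base words had a median of 2250.5 copies in the genome, and 96.6% of its bases matched themselves at a shift of 208 bases. At 24 h its signal was far below that of the 22 other windows, the lowest of which had 101.71 RPKM.

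Genes of the netrin-G pathway were counted by name in each list. Of 9 genes that comprise Lrrc4c, its family, their netrin-G ligands, phosphatase partners and postsynaptic scaffold, the dorsal lists named 0 and 0. The ventral 24 h against 26 h list named 1, Lrrc4c. The ventral 24 h against 22 h list named 2, Lrrc4c and Ptprd, a receptor phosphatase of the synapse, whose window had 7.26 RPKM at 24 h and 0.49 at 22 h. Both genes were named from windows over 1 Mb from their start sites, so these counts concern names given by distance. The share of all genes that each list names was not computed, so the counts are not read as few or many.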

How the data were processed

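The members and gene lists were chosen with earlier results of these data known. Named by rule were the member windows (in full or, beyond a few, by range), the up to 5 other genes with the nearest median log2 ratio (at least 50 RPKM in both columns, higher at 24 h), Col19a1, Gad2 and the netrin-G list. Fam172a, Ly6c2, 2700054A10Rik, Gm14496 and Tmx3 were named after their values were seen.

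The submitters' processing notes name BWA and mm9. Per the file headers, the authors deposited RPKM for each 500-bp window, a log2 fold change from edgeR and its unadjusted p-value. With 1 column per group that p compares columns, not animals. The deposited columns headed as counts hold a rescaled score, not reads. The authors' criteria for listing a window and the way they combined duplicate samples are not given in the sources used here. Of repeated rows, 3 that gave a window a second gene name were dropped.

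Reads were recovered from the step that 1 read adds to RPKM. All values (100%) were whole within 0.01 RPKM, and the step gave the depth. Ratios carry exact 95% Clopper-Pearson intervals; without molecular identifiers, reads can repeat a molecule, so these cover counting error only. Annotation was GENCODE M1. CpG, GC, 31-base words, self-match at shifts of 5 to 300 bases, and BLAST 2.17.0 alignments (at least 50 bases, E-value 1e-05) used the mm9 genome, with megablast for whole blocks. Windows on the grid that hold unread bases were left out. No repeat annotation was used, and satellite names are background. The recovery of reads and the word and shift counts were tested on simulated data. Tools were scipy 1.17.1, numpy 2.4.6, numba 0.67.0, pandas 2.3.3 and matplotlib 3.10.9 under Python 3.11.15.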

Additional observations from a re-analysis of the deposited data

How the results depend on the processing

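Recovered reads not scaled to depth gave a median 24 h to 26 h ratio of 0.844 for B020014A21Rik, 0.983 for Tmem125 and 0.996 for 4933422A05Rik, on the other side of 1, and 1.0 for Lrrc4c, because the 26 h column is deeper. The authors' log2 fold change, 1 RPKM added to both columns, the ratio of summed RPKM and the ratio of rescaled scores, the last chosen after seeing the data, kept the direction in all 4 genes and in the Lrrc4c window of the 22 h list. With neighbouring windows merged, the 22 windows were 10 regions, all higher at 24 h, and with a p of at most 1e-06 there were 20. With 20-base words the median share found once was 9.56% for B020014A21Rik (16.2% with 31 bases), 21.8% for Lrrc4c (32.8%), 24.9% for Tmem125 (32.2%) and 51.9% for 4933422A05Rik (67.6%). Mostly unique member windows were 1 in place of 3. A best shift of 19 bases was found in 3 of 9 B020014A21Rik windows alone and in 9 with 1000 bp added on each side.

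No paired analysis was possible because each group is 1 column in the lists, and for the same reason no replicate could be left out. No dorsal ratio could be computed, since no member window is in the dorsal lists, and at least 50 RPKM leaves no value for the Lrrc4c window of the 22 h list. Depth limits that window most, with 5 reads at 24 h.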
